A study of Mus musculus with 53 samples.

Results

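The NMDA receptor subunit genes Grin1, Grin2a, Grin2b, Grin2c, Grin2d and Grin3a were followed across 2 brain regions, 2 diets and 2 ethanol histories in the mouse. These 6 genes were taken by name from 56504 gene identifiers, and all 6 passed the filter on low counts in every fit. Grin3b, the remaining gene of the family, had 0 counts in all 19 amygdala libraries, which allows up to 0.1096 CPM (reads of a gene per 1000000 reads in genes) over the pooled region, from 3 counts, and 14 counts over the 34 cortex libraries. RNA came from whole tissue of the central nucleus of the amygdala (CeA) and the medial prefrontal cortex (mPFC) of C57BL6/J mice at postnatal day 119, and the sequencing was biased to the 3' end of transcripts. The PLX5622 mice ate chow with PLX5622 at 1200 mg/kg for 28 days before the ethanol phase, and the Control mice ate control diet. PLX5622 inhibits the receptor CSF1R, which microglia need to survive, so these mice are a model of microglia loss and not of a change made in neurons. The mice labelled dependent (Dep) went through 4 weeks of chronic intermittent ethanol exposure paired with drinking of 15% ethanol, with tissue taken 24 hours after the last exposure. The records of the mice labelled non-dependent (NonDep) carry the same entries of 4 weeks, 15% ethanol and 24 hours. The sources used here do not say which of these the NonDep mice received, so NonDep mice are not shown to be ethanol-naive. They do not give the sex of any mouse either. Libraries from CeA came from 4 PLX5622 Dep, 5 Control Dep, 4 PLX5622 NonDep and 6 Control NonDep mice. Those from mPFC came from 9 PLX5622 Dep, 9 Control Dep, 9 PLX5622 NonDep and 7 Control NonDep mice.

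NMDA receptors are glutamate-gated channels that pass calcium when glutamate and a co-agonist, glycine or D-serine, are bound while the membrane is depolarised. Grin1 encodes GluN1, the obligatory subunit that binds the co-agonist. Grin2a to Grin2d encode the GluN2 subunits, which bind glutamate and set how fast the channel closes, how strongly magnesium blocks it and where it is anchored. GluN2B (Grin2b) predominates early in life and GluN2A (Grin2a) joins it as forebrain synapses mature, GluN2C (Grin2c) is best known from cerebellar granule cells and astrocytes, and GluN2D (Grin2d) from interneurons. GluN3A (Grin3a) binds glycine and lowers calcium permeability. Ethanol inhibits NMDA receptors, and changes of their subunits under repeated ethanol have long been studied in the amygdala and prefrontal cortex.

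Before any comparison, these features of the libraries bear on the values. Each library held between 1062443 and 1968971 counts in genes in CeA and between 1531574 and 2607438 in mPFC, and levels below are CPM of that total. The label CeA was checked against markers: of 9 central amygdala neuron markers tested, 6 were higher and 1 lower in CeA than in mPFC in each of the 4 region comparisons. Over all genes tested, 20% to 23.2% were higher and 20.2% to 23.4% lower. Dlk1, the tenth on the marker list, had 0 counts in both regions. The summed level of these markers was 674 to 884 CPM in CeA against 343 to 510.3 CPM in mPFC, and most of it was Sst (451 to 654 CPM in CeA, 238 to 318 CPM in mPFC), which also stands on the GABA neuron list. Prkcd had a median of 12.3 CPM in CeA and 6.98 CPM in mPFC, Crh 7.61 CPM in CeA and 6.85 CPM in mPFC, and Crhr1 12.4 CPM in CeA and 21.9 CPM in mPFC. Of 10 excitatory neuron markers, 7 or 8 were lower in CeA and 1 or 2 higher. Among them Slc17a7 had a median of 264 CPM in CeA and 276 CPM in mPFC, and Tbr1 54.8 CPM in CeA and 178 CPM in mPFC. How much tissue from outside the central nucleus the CeA libraries hold was not tested. Striatal neuron markers summed to 947 to 3618 CPM in CeA libraries and 656 to 2212 CPM in mPFC libraries, and Ttr, a choroid plexus gene, ranged from 26.9 to 4234 CPM in CeA against 0 to 0.988 CPM in mPFC. Synthetic spike-in RNA was found in 12 libraries, 3 in each of the 4 dependent groups. The mouse numbered 16 carries a Control label in CeA and a PLX5622 label in mPFC, and the pairs leave it out. The sources used here do not say whether counting used strand. This bears on the exonic bases that Grin1 shares with its antisense gene Grin1os (1307), and Grin2d with Gm45441 (643). Without strand, reads in those bases cannot be told apart and may have been set aside as ambiguous, so Grin1 and Grin2d may be undercounted. Grin1os itself had 7 counts in all of CeA and 9 in all of mPFC.

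The genes lie on the minus strand of different chromosomes and differ widely in length (GRCm38). Grin2b spans chr6:135713233-136173511 (460 kb) and Grin2a chr16:9567898-9995560 (428 kb), and both are long genes. Grin3a spans chr4:49661611-49845744 (184 kb), Grin2d chr7:45831883-45878378 (46.5 kb), Grin1 chr2:25291181-25319187 (28.0 kb) and Grin2c chr11:115249169-115267243 (18.1 kb).

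On plain CPM, Grin2b and Grin2a were the most abundant of the 6 in both regions, with means of 936 CPM for Grin2b and 605 CPM for Grin2a in CeA and of 931 CPM for Grin2b and 926 CPM for Grin2a in mPFC. Grin2b had more reads than Grin2a in 19 of 19 CeA libraries and in 20 of 34 mPFC libraries, so in mPFC the 2 genes were not separated on that scale. Per kilobase of exon, mean levels in CeA ran from Grin2b (37.7 CPM per kb) through Grin2a (33.8), Grin1 (24.3), Grin3a (10.6) and Grin2c (6.49) to Grin2d (1.57). In mPFC the order of mean CPM per kb was Grin2a (51.6), Grin2b (37.5), Grin1 (28.5), Grin2c (6.29), Grin3a (5.96) and Grin2d (0.851). Per kb, Grin2b stood above Grin2a in 18 of 19 CeA libraries, and Grin2a above Grin2b in 34 of 34 mPFC libraries, a place that in mPFC rests on the division by exon length (17.9 kb for Grin2a, 24.8 kb for Grin2b). Grin2c and Grin3a were not separated in mPFC, where Grin2c was higher per kb in 22 of 34 libraries, while Grin3a stood above Grin2c in 19 of 19 CeA libraries. These levels divide by exon length, and in libraries biased to the 3' end counts need not scale with length, so an order between genes is approximate while a difference of 1 gene between regions does not rest on it.

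Among the 4 GluN2 genes, the summed level per kb divided differently in the regions. Grin2b made up 47.4% ± 1.38 and Grin2a 42.3% ± 2.09 of the sum in CeA (SD, n = 19). In mPFC Grin2b made up 39.0% ± 1.43 and Grin2a 53.6% ± 1.99 (SD, n = 34). These shares rest on the division by exon length, without which Grin2a and Grin2b were not separated in mPFC. Each SD is over all libraries of a region, its 4 groups pooled. Grin2c held 8.23% ± 1.34 of the sum in CeA and 6.56% ± 0.988 in mPFC, and Grin2d 2.00% ± 0.548 in CeA and 0.886% ± 0.219 in mPFC. The Grin2a shares did not overlap between the regions, at 37.1% to 45.3% in CeA against 49.9% to 59.0% in mPFC.

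**Figure D1:**
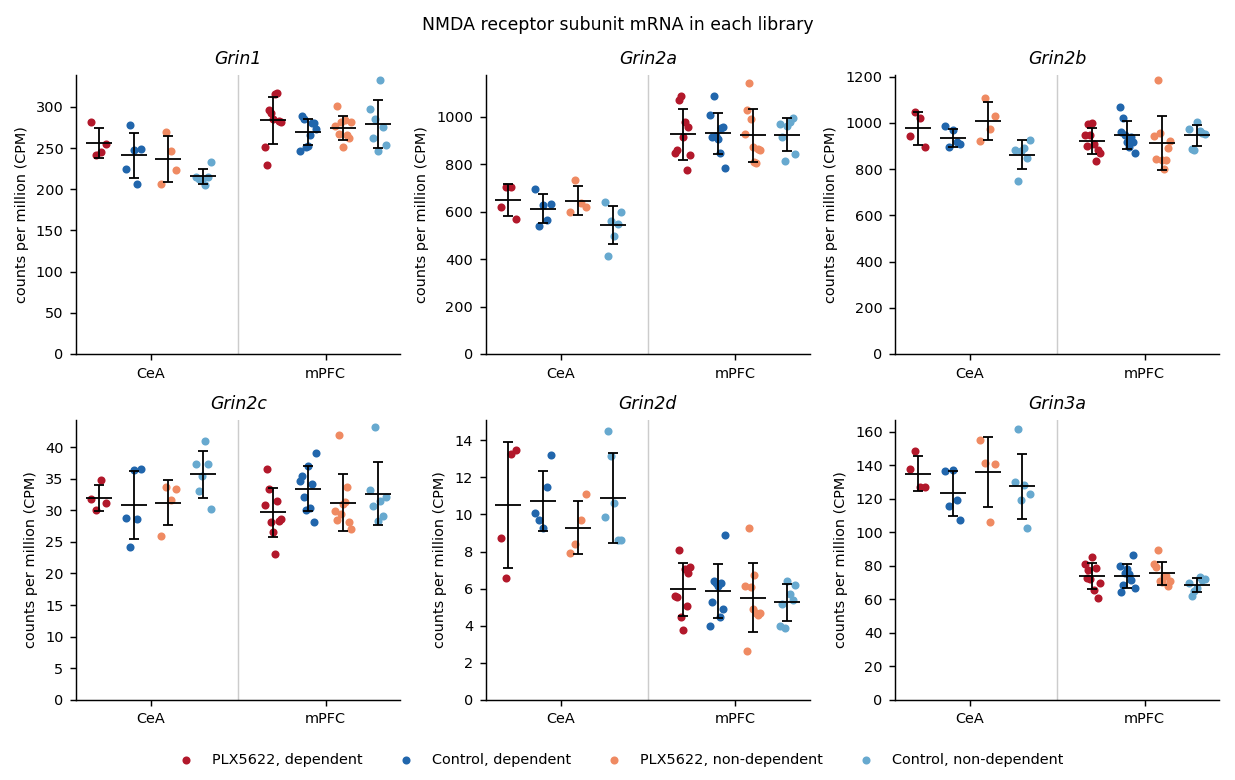
CPM of the 6 NMDA receptor subunit genes in each of 53 libraries (points), by region (CeA left, mPFC right) and group (colours), with the group mean and SD in black. Grin3a and Grin2d sit higher in CeA and Grin2a lower, while Grin2b and Grin2c lie at similar levels in both regions.

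The regions differed in 3 subunit genes in all 4 groups of diet and dependence. Grin3a and Grin2d were higher in CeA than in mPFC, Grin2a was lower, and a gene was called at an adjusted p under 0.05 in edgeR's quasi-likelihood test with Benjamini-Hochberg adjustment over the 13035 genes tested. Of the 6 genes, 4 were called in Control NonDep mice (2 higher, 2 lower), where 46.4% of all genes tested were called (23.2% higher and 23.2% lower). In PLX5622 NonDep mice 4 were called (3 higher, 1 lower), against 43.6% of all genes (21.5% higher, 22.1% lower). Control Dep mice gave 3 called genes (2 higher, 1 lower) against 46.6% of all genes (23.2% higher, 23.4% lower). PLX5622 Dep mice gave 3 (2 higher, 1 lower) against 40.2% (20% higher, 20.2% lower). Counts of 3 or 4 in 6 genes lie near these backgrounds and say nothing particular to the family. The tissue also differed in handling: punches of 300 µm frozen slices, sequenced on a NovaSeq 6000, gave the CeA libraries, and fresh dissection, sequenced on a HiSeq 2500, gave the mPFC libraries, and the counting used different sets of identifiers. Mitochondrial transcripts took 6.55% to 8.88% of counts in CeA against 3.66% to 4.73% in mPFC. Region and these steps cannot be told apart.

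Grin3a was higher in CeA in every group. Its levels were 137.6, 148.7, 126.9 and 127.0 CPM in CeA of PLX5622 Dep mice, against a lowest of 60.8, a median of 72.6 and a highest of 85.1 CPM in mPFC of the same group. In Control Dep mice they were 136.6, 115.6, 137.4, 119.1 and 107.2 CPM in CeA, against 64.5, 74.9 and 86.5 CPM (lowest, median and highest) in mPFC. In PLX5622 NonDep mice they were 155.2, 141.4, 106.4 and 140.8 CPM in CeA, against 67.9, 73.9 and 89.7 CPM in mPFC. In all 3 of these groups each CeA library was above every mPFC library. Control NonDep mice had 102.6, 125.4 and 161.8 CPM in CeA (lowest, median and highest), against 62.2, 69.5 and 73.1 CPM in mPFC, again without overlap. The log2 fold change of Grin3a, CeA over mPFC, was 0.95 ± 0.09 in PLX5622 Dep, 0.78 ± 0.08 in Control Dep, 0.92 ± 0.09 in PLX5622 NonDep and 0.93 ± 0.08 in Control NonDep mice (SE). The adjusted p of Grin3a in edgeR was 2.57e-15, 1.79e-13, 3.28e-15 and 3.22e-16 in the same order. In the 15 mice with a library from each region, Grin3a was higher in CeA in 15, by a ratio of 1.43 to 2.13 with a median of 1.76.

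Grin2d, the rarest of the 6, was higher in CeA as well. PLX5622 Dep mice had 8.72, 6.59, 13.3 and 13.5 CPM of Grin2d in CeA, against a lowest of 3.78, a median of 5.60 and a highest of 8.11 CPM in mPFC. Control Dep mice had 10.1, 9.69, 9.26, 11.5 and 13.2 CPM in CeA, against 3.96, 6.16 and 8.89 CPM in mPFC. PLX5622 NonDep mice had 7.94, 8.43, 9.68 and 11.1 CPM in CeA, against 2.63, 4.89 and 9.24 CPM in mPFC. Control Dep libraries did not overlap between the regions, whereas in each PLX5622 group the lowest CeA libraries lay within the mPFC range. Control NonDep mice had 8.61, 10.2 and 14.5 CPM in CeA (lowest, median and highest), against 3.89, 5.40 and 6.40 CPM in mPFC, without overlap. These levels rest on 7 to 26 reads per library in CeA and 5 to 18 in mPFC, and counting error alone gives a coefficient of variation of 25.7% in CeA and 29.3% in mPFC, beside an observed 22.3% in CeA and 26.2% in mPFC within groups. The log2 fold change of Grin2d, CeA over mPFC, was 0.91 ± 0.23 in PLX5622 Dep, 0.95 ± 0.21 in Control Dep, 0.82 ± 0.23 in PLX5622 NonDep and 1.096 ± 0.21 in Control NonDep mice (SE). The adjusted p of Grin2d in edgeR was 0.000959, 7.41e-05, 0.00320 and 1.30e-05 in that order. Without the libraries holding spike-in RNA, the Control Dep difference was 0.75 and was not called (adjusted p = 0.0813, the highest of 27 alternatives, which began at 6.70e-05). That setting left out 3 of the 5 CeA libraries of Control Dep mice. All 15 mice with both regions had more Grin2d in CeA, by a ratio of 1.19 to 3.03 with a median of 1.82.

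Grin2a ran the other way, lower in CeA. PLX5622 Dep mice had 619.6, 702, 705 and 568.4 CPM of Grin2a in CeA, against a lowest of 774, a median of 914 and a highest of 1086 CPM in mPFC. Control Dep mice had 697, 541, 629, 566 and 631 CPM in CeA, against 786, 918 and 1086 CPM in mPFC. PLX5622 NonDep mice had 597, 732, 637 and 621 CPM in CeA, against 806, 873 and 1141 CPM in mPFC. In these groups every CeA library was below every mPFC library. In CeA the Control NonDep mice had the lowest mean level of Grin2a, with 411, 553 and 641 CPM in CeA (lowest, median and highest), against 813, 960.5 and 996 CPM in mPFC. The log2 fold change of Grin2a, CeA over mPFC, was -0.43 ± 0.10 in PLX5622 Dep, -0.55 ± 0.10 in Control Dep, -0.44 ± 0.10 in PLX5622 NonDep and -0.73 ± 0.10 in Control NonDep mice (SE). The adjusted p of Grin2a in edgeR was 0.000744, 6.24e-06, 0.000487 and 1.25e-08 in that order. All 15 mice with both regions had less Grin2a in CeA, with a ratio of 0.514 to 0.838 and a median of 0.693.

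Grin1 and Grin2b were each called in 1 of the 4 groups. Grin1 fell to 205, 214 and 233 CPM (lowest, median and highest) in CeA of Control NonDep mice, against 247, 276 and 333 CPM in mPFC, and these libraries did not overlap. The log2 fold change of Grin1 there was -0.34 ± 0.07 (SE, edgeR adjusted p = 1.88e-05). In the other groups it was -0.06 ± 0.07 in PLX5622 Dep (adjusted p = 0.521), -0.10 ± 0.07 in Control Dep (0.215) and -0.14 ± 0.07 in PLX5622 NonDep mice (0.109, edgeR). The difference between the Grin1 effects was not called: the change with dependence in CeA minus that in mPFC on control diet was 0.24 ± 0.09 (SE), with an adjusted p of 0.969 in edgeR. Grin1 was lower in CeA in 12 of 15 mice and higher in 3.

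Grin2b was close in the regions. PLX5622 NonDep mice had 920.1, 1108, 974 and 1031 CPM in CeA, against a lowest of 799, a median of 889 and a highest of 1187 CPM in mPFC, so the groups overlapped. The log2 fold change of Grin2b was 0.22 ± 0.07 (SE, edgeR adjusted p = 0.00837), and 0.18 without the CeA library of mouse 23, the highest of the group (adjusted p = 0.0676, against 0.00468 to 0.0676 over the alternatives). In PLX5622 Dep mice it was 0.16 ± 0.07 with an edgeR adjusted p of 0.0522, and 9 of 27 alternative fits called it. The lowest edgeR adjusted p over the alternatives was 0.0307. Without the libraries holding spike-in RNA the log2 fold change was -0.04. That setting left in CeA of this group only mouse 29, its lowest library for Grin2b (894 CPM). In Control Dep and Control NonDep mice Grin2b differed by 0.04 ± 0.06 (adjusted p = 0.671) and -0.09 ± 0.06 (adjusted p = 0.240, edgeR). Of 15 mice, 8 had more Grin2b in CeA and 7 less.

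Grin2c was not called in any group. Its log2 fold change, CeA over mPFC, was 0.18 ± 0.13 in PLX5622 Dep, -0.04 ± 0.11 in Control Dep, 0.08 ± 0.12 in PLX5622 NonDep and 0.16 ± 0.11 in Control NonDep mice (SE), with edgeR adjusted p from 0.233 to 0.849. The 95% intervals of the fold ran from 0.836 to 1.35 over the 4 groups. Levels of Grin2c ranged from 24.2 to 40.9 CPM in CeA and from 23.1 to 43.2 CPM in mPFC.

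**Figure D2:**
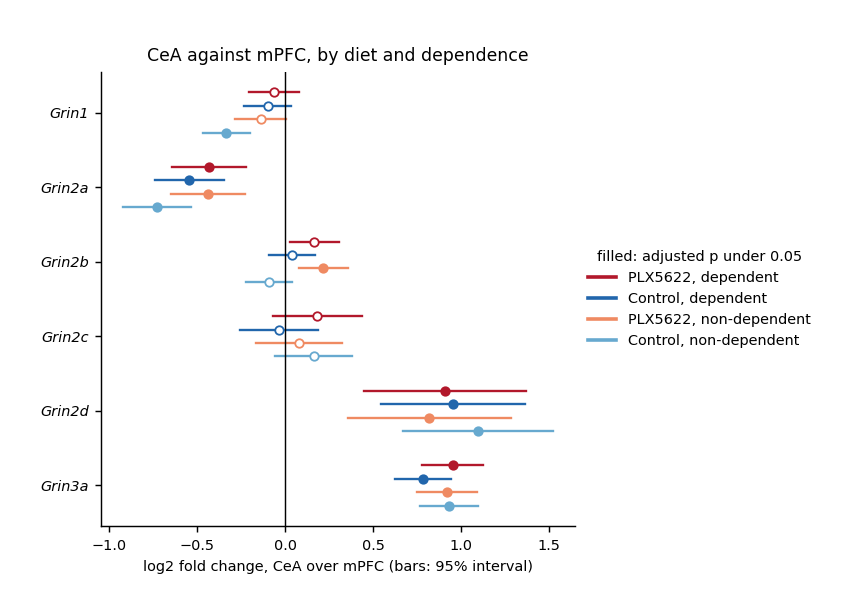
Log2 fold change, CeA over mPFC, of the 6 subunit genes in the 4 groups of diet and dependence (colours), with 95% intervals. Filled points have an adjusted p under 0.05: Grin2a lies below 0 and Grin2d and Grin3a above 0 in every group, at -0.43 to -0.73 for Grin2a and 0.78 to 0.95 for Grin3a.

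The level of Grin2b against Grin2a can be read within a library as the ratio of their CPM, which does not depend on library scaling. The Grin2b to Grin2a ratio of CPM was 1.52, 1.49, 1.45 and 1.57 in CeA of PLX5622 Dep mice, against 0.873, 1.03 and 1.12 (lowest, median and highest) in mPFC. In Control Dep mice it was 1.41, 1.66, 1.54, 1.62 and 1.44 in CeA, against 0.941, 1.03 and 1.11 in mPFC. In PLX5622 NonDep mice it was 1.54, 1.51, 1.53 and 1.66 in CeA, against 0.818, 1.01 and 1.07 in mPFC. In Control NonDep mice it was 1.38, 1.56 and 1.82 in CeA (lowest, median and highest), against 0.959, 1.01 and 1.13 in mPFC. Over all libraries the lowest CeA ratio, 1.38, lay above the highest mPFC ratio, 1.13. The mean log2 ratio was higher in CeA by 0.59 in PLX5622 Dep, 0.58 in Control Dep, 0.66 in PLX5622 NonDep and 0.65 in Control NonDep mice. Exact two-sided permutation tests gave p = 0.00140, 0.000500, 0.00140 and 0.000583 in that order, the smallest each design allows, and adjusted p of 0.00420, 0.00350, 0.00420 and 0.00350 over 12 comparisons of the ratio. Within mice, the ratio was higher in CeA in 15 of 15, but 3 or 4 pairs per group cannot give an exact p below 0.25 or 0.125. The ratio holds the same Grin2a difference as the single-gene test and is not separate evidence of it.

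**Figure D3:**
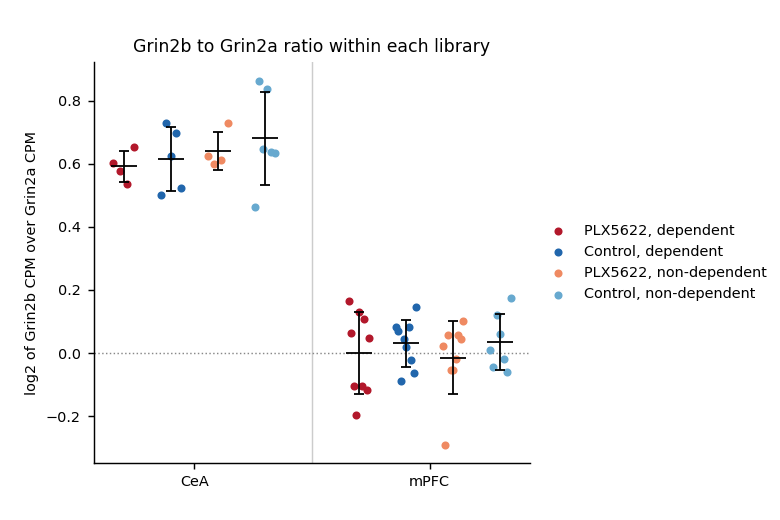
Log2 of the Grin2b to Grin2a ratio of CPM in each library (points), CeA left and mPFC right, by group (colours), with group means and SD in black and a dotted line at equal CPM. The CeA libraries lie above all mPFC libraries, at ratios of 1.38 to 1.82 against 0.818 to 1.13.

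Cell type markers are given beside the region, where 40.2% to 46.6% of all genes were called. Of 10 excitatory neuron markers, 8 were lower in CeA and 1 higher in the PLX5622 Dep, Control Dep and Control NonDep groups, and 7 were lower and 2 higher in PLX5622 NonDep mice, with sums of 669.9 to 1113 CPM in CeA against 1204 to 1798 CPM in mPFC. Of 10 GABA neuron markers, 4 were higher and 2 lower in each group but Control Dep, where 5 were higher and 2 lower. Their sums were 1096 to 1601 CPM in CeA against 775 to 1341 CPM in mPFC. Over all genes tested, 20% to 23.2% were higher and 20.2% to 23.4% lower. Striatal neuron markers were higher for 10 of 11 genes in both Control groups and for 4 of 11 in both PLX5622 groups, and oligodendrocyte markers for 10 of 10 in both Control groups, 7 in PLX5622 Dep and 6 in PLX5622 NonDep mice. The share of counts in genes spanning at least 100 kb was 33.9% to 38.9% in CeA and 37.7% to 41.5% in mPFC. The part of these shifts in the subunit differences was not tested, and in whole tissue fewer cells of a type and less RNA per cell cannot be told apart. The CeA libraries of Control NonDep mouse 19 and Control Dep mouse 11 had the highest striatal marker sums (3618 and 3294 CPM). Without these libraries the count of called subunit genes was 3 in Control Dep and 4 in Control NonDep mice, the same as with them. Neither PLX5622 comparison lost a library, so their unchanged counts of 3 (Dep) and 4 (NonDep) bear only on the shared fit.

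Genes that work with the receptor also differed by region, in both directions. Of 86 genes on lists of receptor scaffolds, downstream signalling and the handling of glutamate and co-agonists, 83 were tested. In PLX5622 Dep mice 17 were higher in CeA and 24 lower, with a median log2 fold change of -0.03 against -0.01 over all genes tested. Control Dep mice had 18 higher and 30 lower (median -0.05, against 0.00 over all genes), PLX5622 NonDep mice 17 and 28 (median -0.07, against -0.01) and Control NonDep mice 19 and 29 (median -0.05, against -0.00). The share called was 49.4%, 57.8%, 54.2% and 57.8% in that order, beside backgrounds of 40.2%, 46.6%, 43.6% and 46.4% of all genes. Of 28 scaffold genes, 2 to 3 were higher and 9 to 13 lower, where 20% to 23.2% of all genes were higher and 20.2% to 23.4% lower, and the median log2 fold change of the list was -0.03 to -0.13. Homer1, which links metabotropic glutamate receptors to the NMDA receptor scaffold, averaged 229 ± 21.4 CPM in CeA and 433 ± 43.5 CPM in mPFC of Control Dep mice (SD, n = 5 and 9), a log2 fold change of -0.86 ± 0.08 (SE, edgeR adjusted p = 1.99e-13). Cacng2, encoding the AMPA receptor auxiliary protein stargazin, fell in all 4 groups, with log2 fold changes of -0.84, -0.72, -0.91 and -0.87 (PLX5622 Dep, Control Dep, PLX5622 NonDep and Control NonDep).

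Of 36 signalling genes, 8 to 10 were higher and 10 to 15 lower, with a list median of -0.04 to -0.13 and the same shares over all genes beside them. Nos1, neuronal nitric oxide synthase, which is tethered to the receptor through PSD-95, averaged 108.1 ± 24.3 CPM in CeA and 27.5 ± 4.34 CPM in mPFC of Control NonDep mice (SD, n = 6 and 7), a log2 fold change of 2.01 ± 0.12 (SE, edgeR adjusted p = 1.13e-22). Its log2 fold change was 1.82 in PLX5622 Dep, 1.62 in Control Dep and 1.81 in PLX5622 NonDep mice. Tiam1, a Rac activator that acts downstream of NMDA receptors in spines, rose by 1.42, 1.52, 1.67 and 1.49 on the log2 scale in PLX5622 Dep, Control Dep, PLX5622 NonDep and Control NonDep mice. Camk2d, the delta subunit of calcium/calmodulin-dependent kinase II, rose by 1.19, 1.07, 1.37 and 1.13 in that order, while Camk2g, its gamma subunit, averaged 151 ± 18.9 CPM in CeA and 250.2 ± 13.5 CPM in mPFC of PLX5622 NonDep mice (SD, n = 4 and 9). Akap9, a kinase anchor that binds GluN1, averaged 263 ± 15.4 CPM in CeA and 171 ± 20.5 CPM in mPFC of Control NonDep mice (SD, n = 6 and 7). Of the 19 genes tested that handle glutamate, glycine and D-serine, 6 were higher and 4 or 5 lower, again beside those shares. Slc17a6, the vesicular glutamate transporter VGLUT2, averaged 47.4 ± 10.8 CPM in CeA and 15.1 ± 4.25 CPM in mPFC of PLX5622 Dep mice (SD, n = 4 and 9). Slc1a2, the astrocyte glutamate transporter GLT-1, averaged 2887 ± 123.4 CPM in CeA and 2195 ± 139.3 CPM in mPFC of the same mice. Slc17a6 and Slc1a2 also stand on the excitatory neuron and astrocyte marker lists.

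Within a region, no subunit gene changed past the threshold with diet or with dependence. In CeA, 0 of 6 were called for PLX5622 against Control in Dep mice (background 0.401%) and in NonDep mice (0.938%), and 0 of 6 for Dep against NonDep on PLX5622 (0.0171%) and on control diet (0.00853%). In mPFC, 0 of 6 were called for PLX5622 against Control in Dep (0.908%) and NonDep mice (0.624%), and 0 of 6 for dependence on PLX5622 (0%) and on control diet (0.00811%). DESeq2 likewise called 0 of 6 in these 8 comparisons. At an unadjusted p under 0.05 in edgeR, 4 of the 24 tests in CeA and 0 of the 24 in mPFC passed. Over all genes, 638 to 1063 of 11721 passed that threshold per comparison in CeA, and 665 to 777 of 12331 in mPFC. The interaction of diet and dependence called 0 of 6 subunit genes and 0% of all genes in CeA and in mPFC, and 0 of 6 at an unadjusted p under 0.05 and by DESeq2, with subunit log2 values of -0.18 to 0.21 in CeA and -0.15 to 0.10 in mPFC. The 95% intervals limit what could have been missed: in mPFC the fold of Grin1, Grin2a and Grin2b lay between 0.885 and 1.13 over the 4 comparisons, and in CeA between 0.861 and 1.40. For Grin2d, with its few reads, the interval in CeA ran from 0.624 to 1.65.

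**Figure D4:**
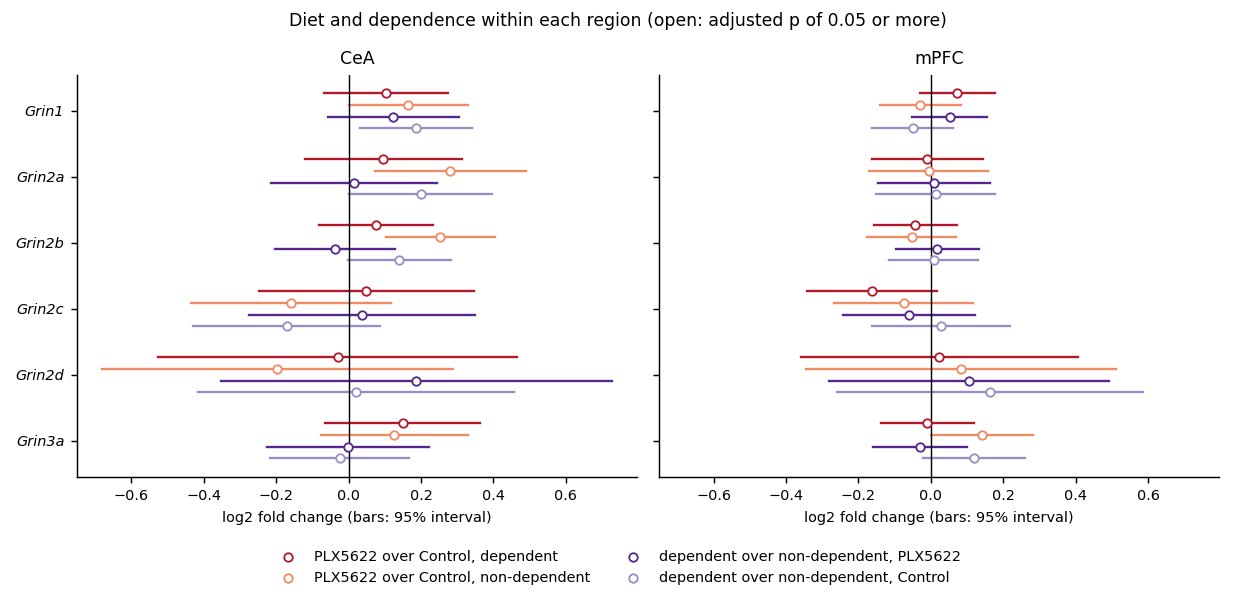
Log2 fold changes with 95% intervals of the 6 subunit genes for PLX5622 over Control and for dependent over non-dependent mice (colours), in CeA (left) and mPFC (right). All points are open, with an adjusted p of 0.05 or more, and the highest are Grin2a (0.28) and Grin2b (0.25) for PLX5622 over Control in non-dependent CeA.

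The CeA tests with an unadjusted p under 0.05 all involve the Control NonDep mice. Grin2b averaged 1008 ± 80.5 CPM in PLX5622 NonDep and 863 ± 61.0 CPM in Control NonDep mice (SD, n = 4 and 6), and the 4 PLX5622 libraries, at 920.1 to 1108 CPM, overlapped the Control ones, at 749 to 926 CPM, only at the edge. The log2 fold change of Grin2b was 0.25 ± 0.07 (SE, edgeR adjusted p = 0.106). Grin2a averaged 647 ± 59.2 CPM in PLX5622 NonDep and 542 ± 80.2 CPM in Control NonDep mice, a log2 fold change of 0.28 ± 0.10 (SE, edgeR adjusted p = 0.318), and with no filter on low counts Grin2a was called (0.27, adjusted p = 0.0413, against 0.0413 to 0.837 over the alternatives). On control diet, Grin1 averaged 241 ± 27.1 CPM in Dep and 216 ± 9.47 CPM in NonDep mice (SD, n = 5 and 6), a log2 fold change of 0.19 ± 0.08 (SE, edgeR adjusted p = 0.729). Grin2a in the same comparison had 0.20 ± 0.10 (SE, edgeR adjusted p = 0.809). These comparisons share the Control NonDep libraries as their control.

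The composition of the CeA libraries moved with the same contrast. The share of counts in genes spanning at least 100 kb was 38.1% to 38.9% in CeA of PLX5622 NonDep mice and 33.9% to 38.0% in Control NonDep mice, without overlap, and Grin2a, Grin2b and Grin3a are such genes. With that share as a covariate, the log2 fold change was 0.12 (adjusted p = 0.837, edgeR) for Grin2a and 0.18 (adjusted p = 0.484) for Grin2b. Grin3a went from 0.13 to 0.23, and the shorter Grin1 from 0.16 to 0.11. Grin2c went from -0.16 to -0.17, and Grin2d stayed at -0.20. Since the share did not overlap between the groups, this fit could not well separate it from diet. In the same contrast all 12 microglia markers fell, with summed levels of 29.5 to 57.0 CPM in PLX5622 NonDep against 352 to 500.1 CPM in Control NonDep mice, and striatal markers summed to 947 to 1558 CPM in PLX5622 NonDep against 1034 to 3618 CPM in Control NonDep mice, with 0 of 10 tested called and 5 at an unadjusted p under 0.05. Oligodendrocyte markers summed to 1758 to 3384 CPM in PLX5622 NonDep against 2404 to 3658 CPM in Control NonDep mice (median log2 fold change -0.38, 0 of 10 called, 4 at an unadjusted p under 0.05), and oligodendrocyte precursor markers to 87.1 to 112.2 CPM in PLX5622 NonDep against 102.6 to 144.4 CPM in Control NonDep mice (-0.24, 0 of 6 called, 2 at an unadjusted p under 0.05). Over all 11721 genes tested, 1063 had an unadjusted p under 0.05 in this contrast. The part of the marker genes in the subunit values was not tested. Whether the diet effect of Grin2b in NonDep mice differed between the regions was tested directly: the effect in CeA minus that in mPFC was 0.31 ± 0.09 (SE, edgeR adjusted p = 0.338). Over all 6 genes, 0 were called for the difference of the diet effect in Dep (background 0.00767%) or NonDep mice (0.0460%), and 0 for that of the dependence effect on PLX5622 or on control diet (both 0%). DESeq2 called 0 as well, and at an unadjusted p under 0.05 edgeR had 3 genes for diet in NonDep mice (Grin1, Grin2a and Grin2b), 1 for dependence on control diet (Grin1) and 0 for the others. Over all 13035 genes, 985 passed that threshold for diet in NonDep mice and 618 for dependence on control diet. Of the 78 partner genes tested in CeA and 80 in mPFC, 1 was called in the comparisons within a region, which is 1.28% of those tested in its comparison, near the background of 0.938%. This gene was Dlgap2, a scaffold gene of the postsynaptic density, which averaged 560.4 ± 26.0 CPM in CeA of PLX5622 NonDep and 447 ± 62.8 CPM in Control NonDep mice (SD, n = 4 and 6), a log2 fold change of 0.35 ± 0.09 (SE, edgeR adjusted p = 0.0292).

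The Grin2b to Grin2a ratio did not pass the test within a region either. In CeA the mean log2 ratio differed by -0.02 for PLX5622 against Control in Dep mice, -0.04 in NonDep mice, -0.05 for dependence on PLX5622 and -0.07 on control diet. In mPFC these differences were -0.03, -0.05, 0.01 and -0.00 in the same order. Exact two-sided permutation p ranged from 0.286 to 0.925 over the 8 comparisons.

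Between libraries of the same group, Grin2a and Grin2b varied together. With group means taken off, log2(CPM + 1) of the 2 genes correlated over the 19 CeA libraries with Pearson's r = 0.837 and Spearman's rho = 0.816 (permutation p = 0.000240 and 0.000330, adjusted over 30 relations 0.00360 and 0.00495). Without the 2 libraries farthest from the Grin2a median r was 0.808. Over the 34 mPFC libraries r was 0.709 and rho 0.672 (permutation p = 4.00e-05 and 9.00e-05, adjusted 0.00120 and 0.00270), and r was 0.649 without the 2 farthest libraries. No other pair of the 15 in each region passed the adjustment, and the remaining values ranged from -0.419 upward. The 2 genes share library depth and gene length: with the share of counts in long genes, Grin2a correlated at r = 0.407 in CeA and 0.483 in mPFC, and Grin2b at 0.198 in CeA and 0.635 in mPFC. With that share taken off by regression, r between Grin2a and Grin2b was 0.844 in CeA and 0.595 in mPFC (permutation p = 2.00e-05 and 0.000840), and rho was 0.896 in CeA and 0.382 in mPFC.

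**Figure D5:**
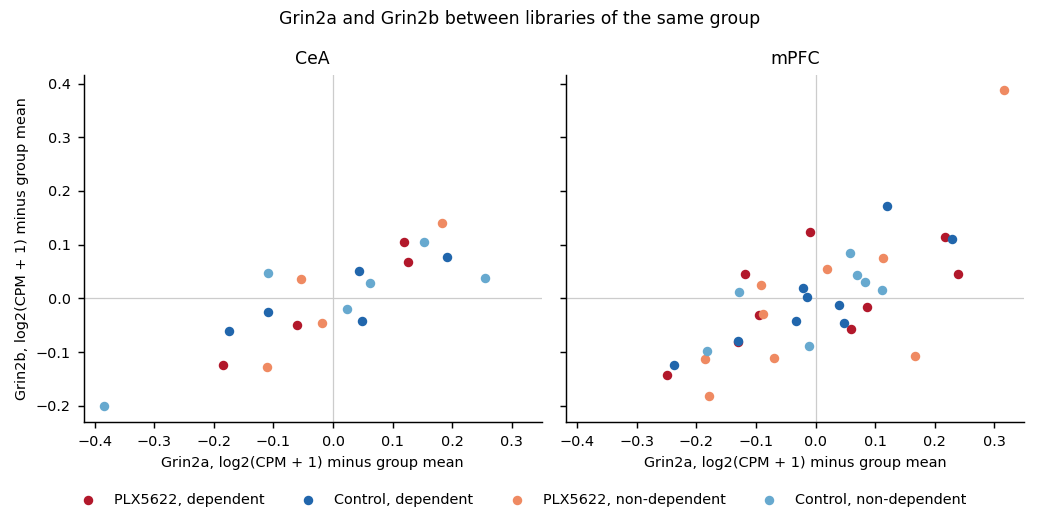
Grin2a against Grin2b, each as log2(CPM + 1) minus its group mean, in 19 CeA libraries (left) and 34 mPFC libraries (right), coloured by group. Libraries high in one gene were high in the other, with r = 0.837 in CeA and 0.709 in mPFC.

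The genes whose levels moved most like Grin2a between mPFC libraries were also very long ones. Opcml, a neuronal adhesion molecule spanning 1135 kb, had r = 0.938 with Grin2a over the 34 mPFC libraries and 0.607 over the 19 CeA libraries, which did not enter the choice. Spock1 (487 kb) had 0.928 in mPFC and 0.385 in CeA, and Rgs6 (574 kb), a regulator of G protein signalling, had 0.872 and 0.0792. For Grin2b the nearest genes were Ctnnd2, encoding delta-catenin (857 kb, r = 0.827 in mPFC and 0.170 in CeA), Ntrk3, the receptor of neurotrophin-3 (562 kb, 0.818 and 0.373), and Frmd4a (596 kb, 0.781 and -0.229). Among all 11423 genes compared, r with Grin2a in CeA had a median of -0.0714 and a 95th percentile of 0.432. Opcml was above that percentile in CeA, and none of Spock1, Rgs6, Ctnnd2, Ntrk3 and Frmd4a exceeded the percentile of its own subunit (0.452 for Grin2b). For Grin1 (Whamm, Cc2d2a and Vwa8), Grin2c (Msi2, Fgfr1 and 2610307P16Rik) and Grin3a (Lama5, Gm15155 and Arhgap10) the nearest genes had r of 0.591 to 0.699 in mPFC and -0.640 to 0.200 in CeA. Grin2d, below 10 CPM in mPFC, was not searched. All of these correlations share libraries and their composition, and describe likeness over libraries of this study only.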

How the data were processed

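RNA counts of 53 libraries (1 per mouse and region) were used as deposited by the authors: whole reads per Ensembl gene. Per the submitters' processing notes, reads were handled with HTSeq 0.11.0, Bowtie2 2.3.4.3 and FastQC 0.11.8, with DESeq2 1.10.1 and R 3.5.1 also named, on mm10 (GRCm38.p6); the sources used here give no settings. The 92 spike-in and 5 summary entries were left out, which kept 71.6% to 75.5% of reads. Gene symbols and coordinates are GENCODE's for GRCm38. CPM are reads per 1000000 in genes.

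Tests used edgeR 4.0.16 in R 4.3.3 (quasi-likelihood F test, TMM scaling, filterByExpr with minimum count 10 and total 15), 1 coefficient for each group. A fit over the groups of CeA held 11721 genes, one over those of mPFC 12331, and one over all 8 groups 13035 of 54393 shared identifiers. Adjustment was by Benjamini-Hochberg within each comparison. The chow and ethanol labels gave the groups. Libraries of the same mouse number, diet and history were taken as 1 animal, since both regions were taken from each brain per the labels' protocols (15 pairs). Their deviations from the group means correlated at -0.0352 to 0.0792 (median 0.0170). The counts thus give no sign of the pairing, which rests on the labels alone. No library was a duplicate of another in its group: the closest pair had a chi-square of 1.11 per gene, against 1 for counting noise. Pairs across groups were not compared. Ratios used log2 after adding 0.5 CPM, with exact permutation tests, and correlations 100000 permutations within groups. The edgeR fits were tested on simulated data for 3 comparisons. Of genes changed 1.25-fold, they called 12% for PLX5622 in CeA NonDep, 38% for PLX5622 in mPFC NonDep and 22% for CeA against mPFC in Control NonDep mice. At 1.5-fold these were 42%, 66% and 70%, and at 2-fold 84%, 96% and 90%. Changes as small as 1.25-fold would thus mostly have been missed. Partner genes are named by smallest p among those called (up to 6 between regions, 3 within), and likeness takes the 3 highest r in mPFC for subunits of at least 10 CPM there. Alternatives were DESeq2 1.42.0, its size factors, no filter, surrogate variables (sva 3.50.0), long-gene share, spike-in libraries or the CeA libraries highest in striatal markers left out (the last chosen after seeing the data), fits of 2 groups, the mouse block, and each library of a region left out within that region (each CeA library between regions). The subunit genes and lists were chosen with earlier results of these data known. Depth limits precision most for Grin2d.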

Additional observations from a re-analysis of the deposited data

Results flagged for a closer look

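In 6 of 56 group tests a single library stood far from the rest of its group by Dixon's criterion, which chance gives in about 1 of 20 groups. Grin1 was 233 CPM in CeA of Control NonDep mouse 20, against 205 to 215 CPM in the other 5. In mPFC of PLX5622 NonDep mouse 21, Grin2b was 1187 CPM (2183 reads) against 799 to 956 CPM, and Grin2c was 41.9 CPM (77 reads) against 27.0 to 33.7 CPM; this library also had 41.2% of counts in long genes, at the top of its group. Grin2c was 43.2 CPM (100 reads) in mPFC of Control NonDep mouse 20, against 28.3 to 33.3 CPM. Grin2d was 8.89 CPM (18 reads) in mPFC of Control Dep mouse 28, against 3.96 to 6.43 CPM. The log2 Grin2b to Grin2a ratio was -0.29 in mPFC of PLX5622 NonDep mouse 16, against -0.05 to 0.10 in the others, and this is the mouse number that carries another diet label in CeA.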

How the results depend on the processing

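Every subunit gene count between regions stayed within 1.5 times its value under each alternative run. Grin3a and Grin2a were called in all 4 groups under 27 of 27 alternatives, Grin2d in 26 of 27 for Control Dep and 27 elsewhere. For PLX5622 against Control in CeA of NonDep mice, 1 subunit gene (Grin2a) was called without the filter on low counts, against 0 with it. In PLX5622 NonDep mice Grin1 was called between regions without the filter (-0.18, adjusted p = 0.0447), and without CeA mouse 23 (-0.20, adjusted p = 0.0411), with 0.0411 to 0.451 over the alternatives. Leaving out the libraries holding spike-in RNA took away 3 of 4 CeA libraries in PLX5622 Dep and 3 of 5 in Control Dep mice. The difference in log2 Grin2b to Grin2a ratio between regions was then 0.64 in PLX5622 Dep and 0.61 in Control Dep mice. In Control Dep mice the exact permutation p was 0.0357, the smallest those sizes allow, and 0.143 after adjustment. With the mouse number as a replicate block the ratio difference was 0.61, 0.51, 0.61 and 0.67 (PLX5622 Dep, Control Dep, PLX5622 NonDep and Control NonDep), with exact p of 0.125, 0.125, 0.125 and 0.250, the smallest these pairs allow. The block left the count of called subunit genes at 3, 3, 4 and 4 in the same order and changed no call of a subunit gene. Without each library in turn the ratio difference ran from 0.57 to 0.61, 0.55 to 0.61, 0.62 to 0.67 and 0.61 to 0.69. Counts over all genes moved by over 1.5 times. For PLX5622 against Control they were 47 (21 to 94) in CeA Dep, 110 (68 to 239) in CeA NonDep and 77 (63 to 180) in mPFC NonDep mice, and 0.908% of genes in mPFC Dep mice (74 to 228 genes over the alternatives). Between regions they were 5235 (2589 to 5278) in PLX5622 Dep, 6078 (3938 to 6334) in Control Dep and 6047 (3982 to 6263) in Control NonDep mice. For dependence they were 0 to 2, with 0 to 18 over the alternatives, and for the difference of the diet effect in NonDep mice 6 (3 to 10). With TMM-scaled CPM, Grin2b and Grin3a correlated in mPFC (r = 0.503, adjusted p = 0.0380; 0.427 and 0.165 otherwise). The cause of these changes was not tested. Depth limits Grin2d, at 5 to 26 reads per library.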
